A study of Mus musculus with 38 samples.

Results

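The Cyp2b cluster on mouse chromosome 7 was described across 6 histone modifications in liver. All peaks that overlap chr7:26660000-27020000 of genome build mm9, a window of 360 kb, were taken as its members, which gave 130 of the 384017 peaks deposited for the series. The window was picked because the sexes differ there, so the male to female ratios below are a description of chosen values and no test was run on them. Cyp2b10 was placed near 26.68 to 26.71 Mb, Cyp2b13 near 26.85 to 26.88 Mb and Cyp2b9 near 26.96 to 27 Mb, intervals that are rounded to 10 kb.

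Livers came from mice of the outbred CD-1 stock, males and females, at 8 weeks of age, and the labels name no treatment for them. Chromatin was immunoprecipitated with antibodies to H3K4me1 and H3K4me3 (4 male and 3 female libraries each), H3K27ac and H3K27me3 (3 male and 3 female), and H3K36me3 and H3K9me3 (2 male and 2 female). The files deposited for the libraries of a mark and sex were identical byte for byte, so each mark has 1 pooled male list and 1 pooled female list and the spread between animals is unknown for every value. In pooled whole liver, fewer cells with a mark and less of the mark per cell cannot be told apart. Reads inside the peaks of a list numbered between 1526754 for male H3K9me3 and 20459697 for female H3K4me1. A control library made with normal rabbit IgG from a male CD-1 liver of 7 to 8 weeks, from an earlier record, was used for background.

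Enzymes of the Cyp2b family are cytochrome P450 monooxygenases of the liver that hydroxylate drugs and steroids such as testosterone. Cyp2b10 is the classical target of the nuclear receptor CAR and is induced by phenobarbital. Cyp2b9 and Cyp2b13 are known for higher expression in female than in male mouse liver, under the control of the sex-specific pattern of growth hormone secretion. H3K4me3 lies at active promoters, H3K4me1 and H3K27ac at enhancers and promoters, and H3K36me3 over transcribed gene bodies. H3K27me3, laid down by Polycomb complexes, and H3K9me3 lie over silent chromatin.

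The promoters of the 3 genes are shown first, because the signal at their starts is the core of what follows and because 2 of them are nearly the same sequence. They are the 250 bases before the annotated start in RefSeq, build GRCm38.p6, plus strand, at chr7:25897408-25897657 for Cyp2b10, chr7:26061245-26061494 for Cyp2b13 and chr7:26173159-26173408 for Cyp2b9. Capitals mark the bases at which Cyp2b13 and Cyp2b9 differ.
Cyp2b10: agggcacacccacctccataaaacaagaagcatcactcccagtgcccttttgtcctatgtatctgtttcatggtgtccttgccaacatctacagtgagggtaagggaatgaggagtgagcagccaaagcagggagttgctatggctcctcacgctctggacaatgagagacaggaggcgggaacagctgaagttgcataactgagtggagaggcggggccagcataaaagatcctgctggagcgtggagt
Cyp2b13: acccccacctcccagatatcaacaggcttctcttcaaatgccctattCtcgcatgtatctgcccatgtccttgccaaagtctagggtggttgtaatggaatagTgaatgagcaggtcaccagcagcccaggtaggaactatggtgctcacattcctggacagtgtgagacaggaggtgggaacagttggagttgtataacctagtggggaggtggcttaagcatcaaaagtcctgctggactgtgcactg
Cyp2b9: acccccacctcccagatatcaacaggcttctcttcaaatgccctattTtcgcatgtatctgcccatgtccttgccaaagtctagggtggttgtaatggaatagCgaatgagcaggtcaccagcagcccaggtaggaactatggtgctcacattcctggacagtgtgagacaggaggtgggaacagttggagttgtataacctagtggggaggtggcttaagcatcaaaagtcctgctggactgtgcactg

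Cyp2b13 and Cyp2b9 shared 248 of 250 bases (99.2%), and the differences were C48T and T104C, with the Cyp2b13 base first and positions counted from 1 at the 5′ end. Cyp2b10 shared 186 of 262 aligned columns with either of them (71.0%). Of the 266 words of 35 bases in the 300 bases around the start, 196 (73.7%) were common to Cyp2b13 and Cyp2b9 and 0 were common to Cyp2b10 and either. A read of 35 bases from such a word cannot be assigned to 1 of the 2 promoters by its letters. The treatment of reads with more than 1 possible position is not stated for the histone lists. A motif search of the 250 bases on both strands used 7 motifs, which were TTCNNNGAA (the STAT5 type), ATCGAT and ATCAAT (the CUX2 and HNF6 types), TGTTTAC (the FOXA type), CAAAGTCCA (the HNF4 type), TTNNGCAA (the C/EBP type) and TATAAA. One motif, TTNNGCAA, was found, 1 time in each promoter, with its first base at position -58 from the start in Cyp2b10 and at -180 in both others. It occurs in 9.56% of all 32851 RefSeq promoters of that length. For the motifs without a match, the shares of all promoters were 7.02% for TTCNNNGAA, 0.728% for ATCGAT, 6.72% for ATCAAT, 3.17% for TGTTTAC, 0.384% for CAAAGTCCA and 12.4% for TATAAA.

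To place the gene starts in mm9, IgG reads aligned in mm9 were searched for letters of these promoters. One read at chr7:26682622-26682656 lies within the Cyp2b10 promoter and puts its start at 26682678. Another at chr7:26846288-26846322 covers the first of the 2 differing bases, matches Cyp2b13 alone and puts its start at 26846515. No IgG read matched the Cyp2b9 promoter, whose start was not placed. The same search checked the tissue. At the starts of the hepatocyte genes Alb, Apoa1 and Fgb, H3K4me3 peaks held 1117, 2218 and 1464 reads in the male list and 341, 1040 and 696 in the female list, and no H3K27me3 island lay there in either. In the authors' deposited table the log2 ratios of these H3K4me3 peaks, male over female, were 1.46, -0.44 and 0.93 in the male list. They were 1.42, -0.18 and 0.94 in the female list, so the ratio at Alb lay beyond 1 towards the male side. Hnf4a, a hepatocyte transcription factor gene, was matched at 2 starts. At 163372892 on chromosome 2 its H3K4me3 peaks held 1823 reads in the male list and 2053 in the female one, with a ratio of -0.19 for both. At 163332594 no H3K4me3 peak lay in either list, and an H3K27ac peak of 233 reads lay in the male list alone. At the start of Neurod1, a neuronal gene, no H3K4me3 or H3K27ac peak lay in either list, and an H3K27me3 island held 691 reads in the male list and 984 reads in the female one. No IgG read matched the promoters of Cyp7a1, Myod1, Pax6 or Cd3e, which were also searched.

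Over the whole cluster, the 4 active marks lay mainly in the female lists and H3K27me3 lay in the male list alone. The male lists had 1 H3K4me3, 16 H3K4me1, 7 H3K27ac and 6 H3K36me3 peaks in the window, and the female lists had 6, 43, 34 and 9. H3K27me3 had 8 islands in the male list and 0 in the female one, and H3K9me3 had 0 in both. Of the 122 active peaks, 68 carried a female call and 0 a male call in the authors' deposited table, which calls a peak when its log2 ratio reaches 1 in either direction and its p lies below 0.001. All 8 H3K27me3 islands carried a male call there. Below 0, that is towards the female side, were 110 of the 122 active ratios in the authors' deposited table, and the 12 above it were 10 H3K4me1 and 2 H3K36me3 peaks.

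**Figure D1:**
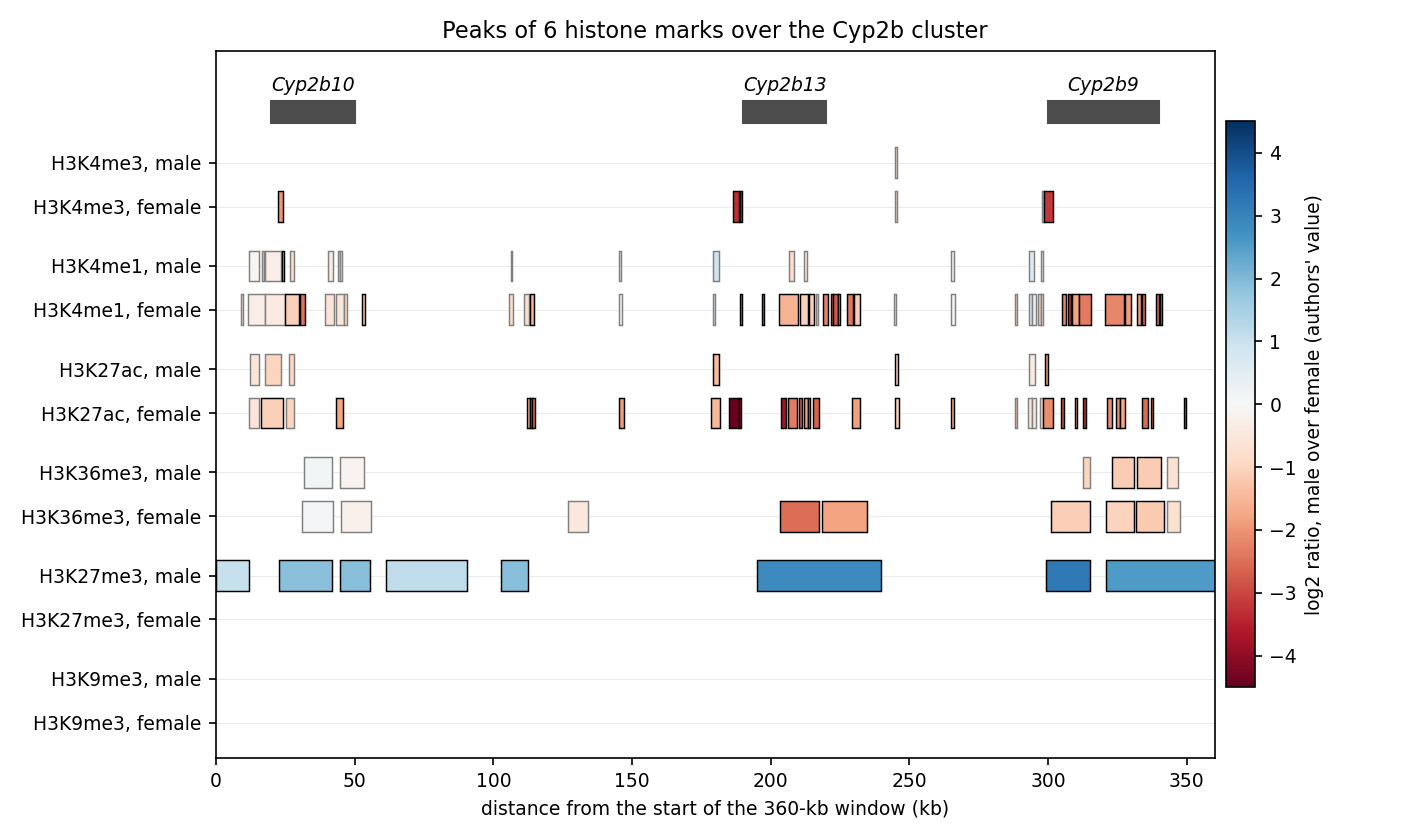
Peaks of the 12 lists along the window, in kb from its start, with the male list of each mark above the female list and the rounded gene intervals on top. Colour is the authors' log2 ratio of male over female signal, and a black outline marks a sex call. The 8 H3K27me3 islands are blue and stand in the male row alone, and the called active peaks are orange to dark red.

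Split by list, the share of called peaks has to be read beside the share in the whole list, and since the window was chosen by these values the 2 shares show nothing further. Female calls in the authors' deposited table were carried by 0 of 1 male-list and 4 of 6 female-list H3K4me3 peaks, where 0.499% and 1.25% of all peaks of those lists were called. For H3K4me1 the authors' deposited table had female calls at 1 of 16 male-list and 25 of 43 female-list peaks, with 0.501% and 3.88% over the lists. For H3K27ac they were 3 of 7 and 28 of 34 in the authors' deposited table (0.861% and 3.02% over the lists), and for H3K36me3 2 of 6 and 5 of 9 (0.0353% and 0.451%). Male calls, of which the active peaks had none, were given by the authors' deposited table to 4.46% and 1.34% of all male-list and female-list H3K4me3 peaks, 8.21% and 1.25% of H3K4me1, 1.74% and 0.608% of H3K27ac and 0.556% and 0.00525% of H3K36me3. Male calls, carried by all 8 H3K27me3 islands of the window, were given by the authors' deposited table to 0.798% of the male H3K27me3 list and 0.0205% of the female one, and female calls to 0.00998% and 0.0410%. For H3K9me3, with no island in the window, the authors' deposited table had male calls at 3.42% of the male and 0.0624% of the female list and female calls at 0.0276% and 2.24%. H3K4me1 peaks of the window had a median log2 ratio of -0.33 (male list) and -1.13 (female list) in the authors' deposited table, where all peaks of those lists had medians of 0.16 and -0.09. For H3K27ac the window's medians in the authors' deposited table were -0.99 (male list) and -1.99 (female list), beside -0.01 and -0.12 over the lists. The 8 H3K27me3 islands had a median of 1.92 in the authors' deposited table, beside 0.11 over the male list.

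Reads gave the same order as peak numbers. Out of every 10000 reads in the peaks of a list, the window held 0.0511 in the male H3K4me3 list (95% exact Clopper-Pearson interval 0.0334 to 0.0749, counting error only) and 2.03 in the female list (1.91 to 2.16). For H3K4me1 the male list had 1.72 (1.65 to 1.79) and the female list 4.53 (4.44 to 4.63). H3K27ac had 0.916 (0.873 to 0.959) in the male list and 4.09 (3.98 to 4.20) in the female one, and H3K36me3 1.02 (0.973 to 1.08) and 3.25 (3.15 to 3.35). H3K27me3 had 5.02 (4.91 to 5.13) in the male list and 0 in the female list, where reads outside islands are not listed. Islands that cross an edge of the window, of which the male H3K27me3 list has 2, are counted with all their reads. In width, H3K27me3 covered 180 kb of the window in the male list, or 50.1%, while female H3K36me3 covered 97.2 kb, female H3K4me1 87.9 kb (24.4%) and female H3K27ac 63.995 kb (17.8%). The active marks covered less in the male lists, at 41.6 kb for H3K36me3, 25.6 kb for H3K4me1, 17.7 kb for H3K27ac and 0.58 kb for H3K4me3, against 10.2 kb for H3K4me3 in the female list.

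**Figure D2:**
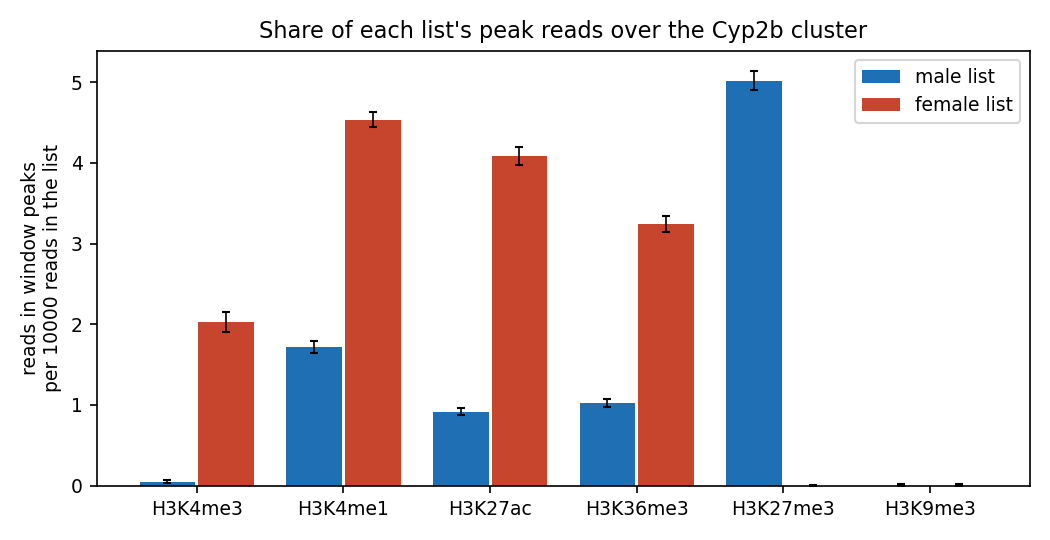
Reads in the peaks of the window per 10000 reads in all peaks of the same list, with the male list left of the female list for each mark and bars for the exact 95% counting interval. The female bar is the taller one for the 4 active marks, and for H3K27me3 the male list has 5.02 and the female list 0.

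In the female list H3K4me3 lay over the placed starts of Cyp2b10 and Cyp2b13 and at the front of the Cyp2b9 interval, and in the male list at none of these. The female peak at Cyp2b10, chr7:26682340-26684281, held 200 reads (103 per kb) with 18.4-fold enrichment, a value that like all enrichments here is the authors' own, and its summit lay 370 bases after the gene start. At Cyp2b13 the female peak chr7:26846291-26848721 held 192 reads (79.0 per kb) with 31.5-fold enrichment and its summit 1081 bases after the start, and a second peak followed at chr7:26848788-26849707 with 44 reads. The tallest of the window was the peak chr7:26958376-26961818 at the front of the Cyp2b9 interval, with 517 reads (150 per kb), which ranked 518 of 18942 in the female list by score. The peaks at Cyp2b10 and Cyp2b13 ranked 8985 and 8902, near the middle of that list. In the authors' deposited table their ratios were log2 -1.98 for Cyp2b10, -3.32 and -2.99 for the 2 peaks at Cyp2b13 and -3.17 for Cyp2b9, all called female. A further female peak of 26 reads just before the last, chr7:26957806-26958369, was not called in the authors' deposited table, with a ratio of -1.70 and a p of 0.00105. Cyp2b10 thus had the ratio nearest to 0 of the 3 genes. The part of the shared Cyp2b13 and Cyp2b9 promoter letters in these values was not tested.

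The 1 H3K4me3 peak of the male list stood away from the 3 gene intervals, at chr7:26904981-26905560 between Cyp2b13 and Cyp2b9. It held 26 reads, had an estimated false discovery rate of 100% and ranked 15632 of 16018. The female list had a peak of 52 reads at the same place, chr7:26904736-26905668. Neither was called, at log2 -0.68 for the male-list and -0.72 for the female-list peak in the authors' deposited table. RefSeq lists 9 genes from Cyp2b10 to Cyp2b9, of which 5 are pseudogenes. Among them are Cyp2b28-ps and Cyp2b27-ps between Cyp2b10 and Cyp2b13, and Cyp2b26-ps between Cyp2b13 and Cyp2b9, but that table is in another build and was used only for this order.

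Cyp2b10 was the one gene whose rounded interval held both H3K4me1 and H3K27ac peaks in both sexes. With intervals widened by 10 kb on each side, those of Cyp2b13 and Cyp2b9 held them too. Over the rounded Cyp2b10 interval the male list had 6 H3K4me1 and 2 H3K27ac peaks and the female list 6 and 3. The lead H3K4me1 peak, which reaches the gene start from upstream, held 573 reads at chr7:26677511-26683626 in the male list and 1266 reads at chr7:26677566-26684824 in the female list. Neither was called, at -0.32 for the male-list and -0.42 for the female-list peak in the authors' deposited table. The H3K27ac peak at the same place held 659 reads in the male list and 1095 in the female list, with summits at positions -2662 and -2541 relative to the gene start. This pair stood on both sides of the call limit, since its ratio in the authors' deposited table was -0.99 and not called in the male list and -1.07 and called female in the female list. Within the gene, female H3K27ac at chr7:26703298-26705895 had no male partner and a ratio of -1.77 in the authors' deposited table. That peak was among the weakest of its list, with an estimated false discovery rate of 76.03% and rank 38143 of 38306. Female H3K4me1 at chr7:26690419-26691979 also had no male partner and a ratio of -2.46 in the authors' deposited table.

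At Cyp2b13 the male list had 2 H3K4me1 peaks over the interval and no H3K27ac, while the female list had 6 of each. The male H3K4me1 peaks held 116 and 75 reads, with 4.28- and 10.28-fold enrichment and estimated false discovery rates of 38.87% and 1.33%. The female lead peak, chr7:26862904-26869802, held 844 reads, and its ratio in the authors' deposited table was -1.58. Female H3K27ac over the interval ranged from -1.86 to -3.81 in the authors' deposited table, and all 6 peaks were called. Their estimated false discovery rates ran from 1.26% to 68.65%. Just before the rounded interval, the female H3K27ac peak over the gene start, chr7:26845024-26848504, held 327 reads and had a ratio of -4.45 in the authors' deposited table, the lowest of all 130 peaks and the seventh lowest of the 1157 female calls of that list. The Cyp2b13 interval is where active peaks numbered 16 with 13 called female, and when widened by 10 kb on each side to take in the start, it held 29 with 25 called female.

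Cyp2b9 had no H3K4me1 or H3K27ac peak of the male list over its rounded interval, which begins after the front of the tallest H3K4me3 peak. The female list had 9 of each, and all 18 were called female. Estimated false discovery rates of these H3K27ac peaks ran from 1.55% to 68.65%. The broadest, H3K4me1 at chr7:26980675-26987329, held 634 reads with 14.6-fold enrichment. H3K4me1 ratios over the interval ran from -1.78 to -3.26 and those of H3K27ac from -1.76 to -3.32 in the authors' deposited table. Just before the interval, within the span of the tallest H3K4me3 peak, male H3K27ac was present in 1 peak of 50 reads, chr7:26958898-26959838. The female H3K27ac peak there, chr7:26958097-26961595, which reaches into the interval, held 350 reads, and the ratios were -1.95 for the male-list and -2.09 for the female-list peak in the authors' deposited table, both called female. Active peaks over the interval numbered 25 with 24 called female, and when it was widened by 10 kb on each side, 41 with 27 called female. The widened interval took in male-list H3K4me1 at chr7:26953139-26955043 and chr7:26957337-26958055. It also took in male-list H3K27ac at chr7:26952935-26955362, and none of these male-list peaks was called.

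**Figure D3:**
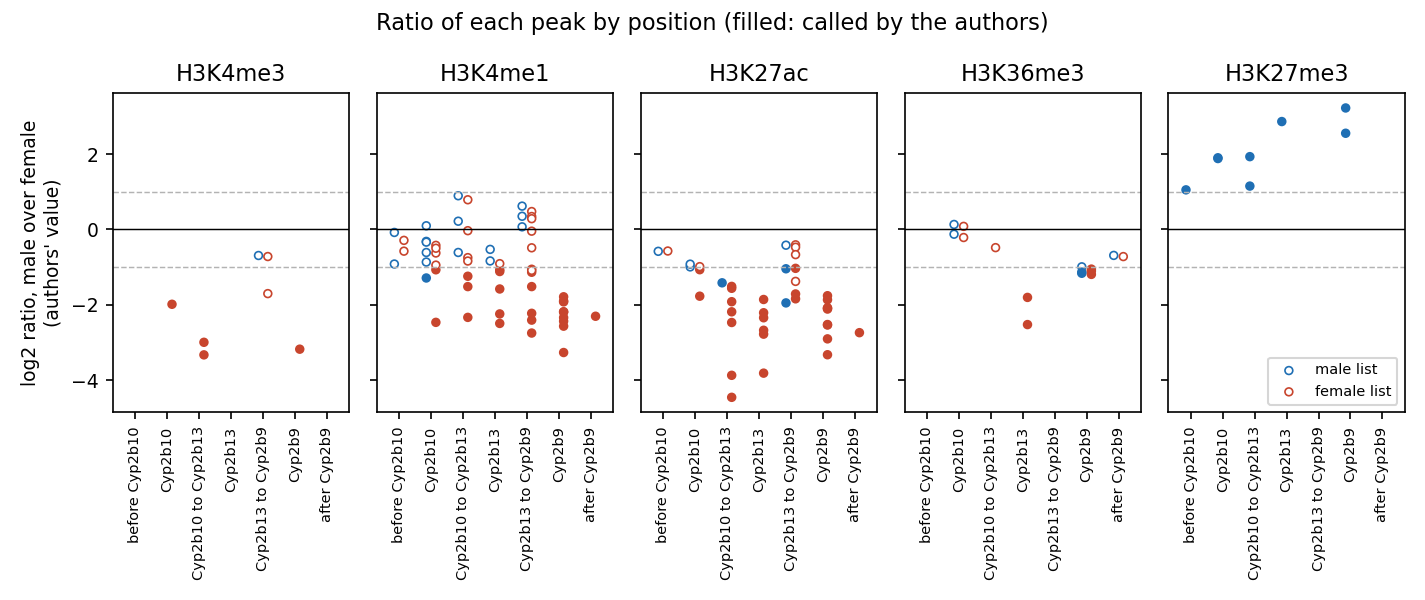
The authors' log2 ratio of male over female signal of every peak in the window, by mark and by position. A peak is placed at the gene interval it overlaps, or else in the stretch outside the genes where it lies. Male-list peaks are drawn to the left of female-list peaks, and filled points are called by the authors. Dashed lines are the call limit of 1 in either direction. H3K36me3 lies near 0 over Cyp2b10 and below it over Cyp2b13 and Cyp2b9, and the 8 H3K27me3 islands lie above the upper limit.

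H3K36me3, the mark of transcribed gene bodies, separated the 3 genes. Over Cyp2b10 both sexes had 2 islands, and the lead one held 446 reads in the male list (43.7 per kb, 1.83-fold over control) and 386 in the female list (34.5 per kb, 1.67-fold). Their ratios in the authors' deposited table lay between -0.21 and 0.13. Cyp2b10 thus had a female-called H3K4me3 peak at its start and H3K36me3 ratios near 0 over its body. The female lead island had the lowest fold of the 9 female islands. It ranked 12519 of 19057, outside the better-scoring 50% of its list. The male lead island ranked 12131 of 25517, within the better-scoring 50%. The other island over Cyp2b10 had 2.10-fold in the male list (rank 12079) and 2.61-fold in the female list (rank 7810). The part of background reads in these ratios was not tested. Over Cyp2b13 the male list had no island, and the female list had 2, chr7:26863200-26877399 with 592 reads and chr7:26878600-26894599 with 792 reads. The second overlaps the rounded interval only at its front and lies mostly past 26.88 Mb, where that interval ends. The ratios of these 2 were -2.52 and -1.80 in the authors' deposited table, and the first is the second lowest of the 86 female calls of that list. Over Cyp2b9 both sexes had 3 islands. The male islands held 103, 253 and 275 reads at 31.3 to 36.8 per kb, and the female islands 514, 602 and 590 at 37.2 to 60.2 per kb. Their ratios ran from -0.99 to -1.19 in the authors' deposited table, 5 of the 6 called female. H3K36me3 at Cyp2b9 was therefore found in both lists, where H3K4me3, H3K4me1 and H3K27ac over the rounded interval were in the female list alone. The male islands there were weak, at 2.24-, 2.08- and 1.41-fold over control and ranks 18208, 13502 and 21769 of 25517. None of the 3 is in the better-scoring 50% of the male list.

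H3K27me3 covered most of each gene body in the male list. Its 8 islands overlap 81.3% of the Cyp2b10 interval, 82.7% of the Cyp2b13 interval and 86.0% of the Cyp2b9 interval. The ratios over Cyp2b10 were 1.88 and 1.90 in the authors' deposited table. They were 2.86 over Cyp2b13, and 3.22 and 2.55 over Cyp2b9, also in the authors' deposited table. These last 3 rank 6, 4 and 13 by ratio among the 160 male-called islands of that list. Outside the genes they were 1.05 for the island that runs in from the left edge of the window, and 1.15 and 1.93 for the 2 islands between Cyp2b10 and Cyp2b13, all in the authors' deposited table. Those over Cyp2b13 and Cyp2b9 were thus the 3 highest of the 8, and those over Cyp2b10 were close to the second island between the genes. Fold over control was modest, from 1.43 for the first island over Cyp2b10 to 2.53 for the first over Cyp2b9. The island over Cyp2b13, chr7:26855200-26899599, held 1676 reads, or 37.7 per kb, against a median of 26.1 per kb over all male islands.

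Both placed gene starts lay outside these islands. The first island of Cyp2b10 begins 122 bases after the gene start, and that of Cyp2b13 begins 8685 bases after it. The female H3K4me3 peak at Cyp2b9 overlaps the island there by 2619 bases and the one at Cyp2b10 by 1482, while both peaks at Cyp2b13 are 6479 and 5493 bases away from one. Edges of such islands are set in steps of 400 bp, with gaps of up to 2400 bp bridged, per the labels.

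Within the male lists, the active marks differed in how much of them lay in H3K27me3 islands, which covered 50.1% of the window. All 41.6 kb of male H3K36me3 lay within them, against 8.87 kb of male H3K4me1 (34.7%), 3.01 kb of male H3K27ac (17.0%) and 0 kb of male H3K4me3. Of the female lists, 89.6 kb of H3K36me3 (92.2%), 63.7 kb of H3K4me1 (72.4%), 32.5 kb of H3K27ac (50.8%) and 4.10 kb of H3K4me3 (40.1%) lay where the male list had H3K27me3. As a share of H3K27me3, these widths were 23.1% for male H3K36me3, and 49.7%, 35.3%, 18.0% and 2.27% for the 4 female marks in the same order. Whether the marks share cells cannot be told from pooled lists of whole liver, and the female widths are set against islands of the other sex. Among female-list H3K4me1 peaks, the median ratio in the authors' deposited table was -1.68 for the 32 that touch a male H3K27me3 island and -0.04 for the 11 that do not. For female-list H3K27ac the medians in the authors' deposited table were -2.10 for 22 peaks and -1.61 for 12.

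H3K4me1 and H3K27ac were then set side by side at single sites. Overlapping H3K4me1, H3K4me3 and H3K27ac peaks of both lists were joined into 40 sites, of which 13 had a peak in a male list and 27 in the female lists alone. The share of such sites over the genome was not computed, so these 2 counts show nothing particular to the window. The lists also differ in length, with 82944 female and 74275 male H3K4me1 peaks, 18942 and 16018 for H3K4me3, and 38306 and 40903 for H3K27ac. Of the 22 sites with both H3K4me1 and H3K27ac, the read-weighted mean ratio from the authors' deposited table was lower, further to the female side, for H3K27ac in 20, with a median difference of -0.86. In 7 of them H3K27ac had a female call and H3K4me1 had none in the authors' deposited table, the reverse held in 1, both marks were called in 12 and neither in 2. Most of the 22 sites held an H3K27ac peak of the female list alone, so they entered through the sex where that mark is high. The window was also chosen by these ratios, and the same count over the genome was not made. The ratios of all sites share the same pooled libraries, and these counts are a description.

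The 4 sites that follow lie between the genes and were chosen after their values were seen. At chr7:26838538-26841670, before the Cyp2b13 start, H3K4me1 held 154 reads in the male list and 55 in the female one. The male H3K4me1 peak was wider, 2067 against 748 bp, and the raw densities were close, at 74.5 and 73.5 reads per kb. The female H3K4me1 peak had an estimated false discovery rate of 45.46%. H3K27ac held 176 reads in the male list (85.9 per kb) and 378 in the female one (121 per kb). These densities are not scaled to list size. H3K4me1 peaks held 12562838 reads in the male list and 20459697 in the female list, and H3K27ac peaks 19253391 and 12837285. The mean ratios of this site from the authors' deposited table were 0.87 for H3K4me1 and -1.48 for H3K27ac, so the marks lay on opposite sides of 0, with H3K27ac called female and H3K4me1 not called. At chr7:26805298-26807248 H3K4me1 had a mean ratio of 0.04 and H3K27ac, found in the female list alone with 127 reads, -1.91, per the authors' deposited table. At chr7:26924999-26926287 H3K27ac was again in the female list alone, with 93 reads and a ratio of -1.71 in the authors' deposited table, while H3K4me1 held 57 reads in the male list and 90 in the female one with a mean ratio near 0. At chr7:26952857-26955720, upstream of Cyp2b9, the mean ratios from the authors' deposited table were 0.50 for H3K4me1 and -0.43 for H3K27ac, with no call for either mark. None of these 4 sites touched a male H3K27me3 island. Over all sites with both marks, the median H3K4me1 ratio from the authors' deposited table was -1.28 at the 14 within male H3K27me3 and -0.24 at the 8 outside, and that of H3K27ac was -1.96 and -1.59.

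**Figure D4:**
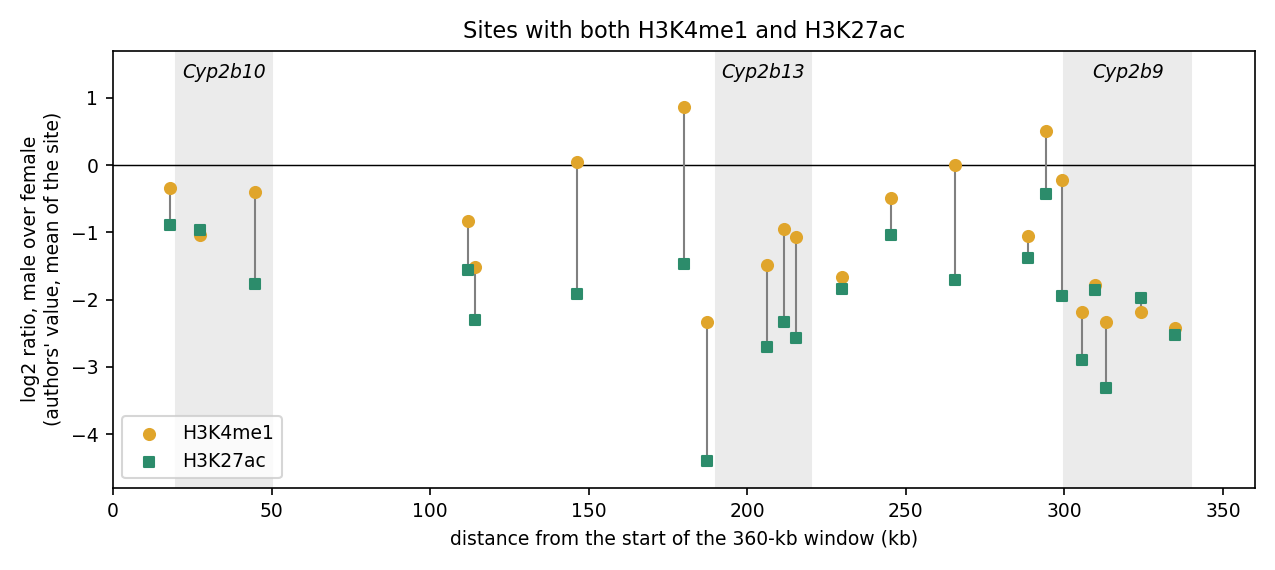
Mean log2 ratio of male over female signal (from the authors' values, weighted by reads) of H3K4me1 and H3K27ac at the 22 sites that hold both, against distance in kb from the window start, with the rounded gene intervals shaded. The H3K27ac point is below the H3K4me1 point at 20 sites, and H3K4me1 is near or above 0 at several sites between the genes.

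The IgG library is a measure that did not enter the choice of the window. It had 986 reads in the window, 2.74 per kb, against a mean of 4.48 per kb over the autosomes, a relative density of 0.611 (95% Poisson interval 0.573 to 0.650). The 3 gene intervals were unlike each other, at 1.29 for Cyp2b10 (1.11 to 1.50), 0.379 for Cyp2b13 (0.282 to 0.498) and 0.719 for Cyp2b9 (0.600 to 0.855). Cyp2b13 thus had the fewest IgG reads for its length and Cyp2b10 the most. The stretches between male H3K27me3 islands had a relative IgG density of 0.400 (0.357 to 0.446), and the islands themselves 0.821 (0.760 to 0.886). The longest stretch between islands, chr7:26772400-26855199 with 82.8 kb and the Cyp2b13 start, had 0.302 (0.248 to 0.363). The stretches between islands were unlike each other, since the one before the Cyp2b10 start, chr7:26672000-26682799, had 1.59 (1.25 to 1.99), above the mean of the islands, and the one at chr7:26702000-26704799 had 0.876 (0.437 to 1.57). The other 5 lay between 0.180 and 0.359. Of the autosomal IgG reads, 37.2% lay at a position and strand already seen, and the intervals count each as a separate read. With 1 read kept per position and strand, the stretch at chr7:26702000-26704799 fell from 11 reads to 3, a relative density of 0.381. The one before the Cyp2b10 start then had 1.51, and the gene intervals 1.14 for Cyp2b10, 0.414 for Cyp2b13 and 0.693 for Cyp2b9. The part of IgG density in where islands and other peaks were listed was not tested. IgG from a female liver was not analysed here.

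**Figure D5:**
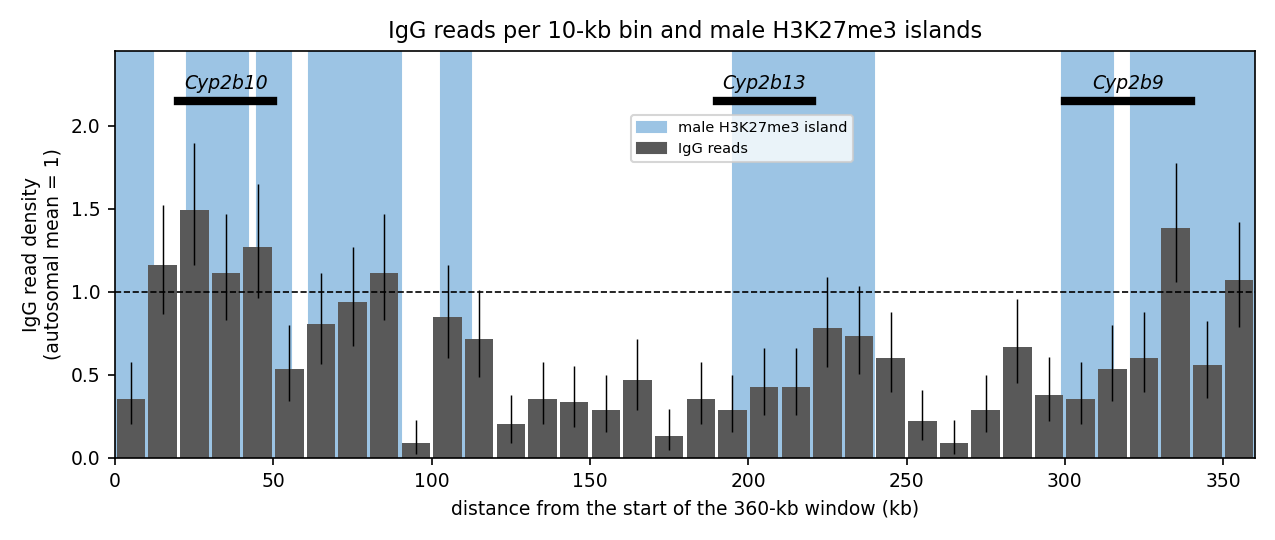
Density of IgG reads in the 36 bins of 10 kb along the window, relative to the autosomal mean (dashed line), with 95% Poisson intervals, and the male H3K27me3 islands as shaded bands. Bins run from 0.0892 to 1.49, and the densest lie over Cyp2b10 and at the back of the Cyp2b9 interval.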

How the data were processed

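Per the submitters' processing notes, Bowtie, SICER 1.1 and build mm9 were used. Per the labels, SICER windows and gaps were 400 and 2400 bp for H3K27me3 and H3K9me3, and 200 and 800 bp for H3K36me3. Column names of the other lists are those of MACS, whose version the sources used here do not give. The authors deposited raw read counts per peak, fold enrichment or fold ratio, p-values, a score of minus 10 times log10 p, and the false discovery rate in percent, per the file headers. The log2 ratio of male over female signal and its p-value are also the authors' deposited values, and the sources used here do not state their normalisation. They rest on pooled libraries, as does every list.

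Peaks overlapping the window by 1 bp or more were taken, and partners in the other sex by the same overlap. The lead peak of a gene is the one with the most reads over its rounded interval. In the H3K27ac lists some tags are rounded to 3 digits, so its totals are approximate. IgG reads were counted by midpoint, and the autosomal mean used the span from first to last read of the 19 autosomes. Intervals cover counting error only. Python 3.11.15, pandas 2.3.3, scipy 1.17.1, Biopython 1.88 (global alignment) and matplotlib 3.10.9 were used, and the interval code was tested on simulated data. The window, genes and lists were chosen with earlier results of these data known, and the tissue check genes after the data were seen. Promoters of all 3 genes were matched by symbol in RefSeq (GRCm38.p6). Other genes of the pathway were not measured, since no mm9 annotation was used. Another 3 IgG libraries were not analysed here. Alternatives were stricter calls, other overlap and list limits, centred ratios and wider gene intervals.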

Additional observations from a re-analysis of the deposited data

How the results depend on the processing

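Of 64 values recomputed under alternatives for 33 results, 55 stayed within 1.5 times the reported value (for IgG, within its interval) and 9 did not. With an absolute log2 ratio of at least 2 required, 35 active peaks were called female (68 as reported) and 3 H3K27me3 islands male (8 as reported), and no active peak was called male under any alternative run. With the better-scoring 50% of each list, H3K4me3 covered 0 kb in the male list, H3K4me1 14.9 kb and H3K36me3 18.6 kb in the male lists, and H3K27ac 35.4 kb in the female list. None of that male H3K36me3 lay over Cyp2b9. With the longer list of a pair cut to the shorter, 1 male H3K4me1 peak lost its partner. The median 10-kb bin gave a relative IgG density of 0.535. Over Cyp2b13, 25 active peaks were called female once the interval was widened by 10 kb, an alternative chosen after seeing the data. H3K27ac was lower than H3K4me1 at 18 of 22 sites with ratios centred on shared peaks. No paired analysis was possible because each mark and sex has 1 pooled list, and for the same reason no replicate could be left out.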

Other observations

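For comparison with the rest of the genome, the autosomes were tiled in 6877 stretches of 360 kb, and 3291 held peaks of the 5 marks found in the window (H3K9me3 had no island there, so it was left out after this was seen). Likeness was the Euclidean distance between mean log2 ratios from the authors' deposited table, for which the median over tiles was 3.77. The nearest tile, on chromosome 15 from 60480001 to 60840000, lay at 1.27, with mean ratios in the authors' deposited table of 1.05 for H3K27me3, -1.38 for H3K27ac and -1.95 for H3K4me3, against 2.07, -1.87 and -2.08 for the Cyp2b window. The next, on chromosome 19 from 39600001 to 39960000, lay at 1.94, with 2.58 for H3K27me3 and -0.89 for H3K27ac in the authors' deposited table. The third, on chromosome 4 from 48960001 to 49320000, also lay at 1.94, with 0.73 for H3K27me3 and -1.12 for H3K27ac in the authors' deposited table.

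At the borders of the window, the nearest peak outside on the left was a female H3K4me1 peak with a ratio of -0.90 in the authors' deposited table, 1.055 kb away and not called. On the right it was a male H3K27me3 island that begins 6.8 kb away, at 0.90 per the authors' deposited table and likewise not called. The outermost peaks wholly inside were a female H3K4me1 peak with -0.57, not called, and a female H3K27ac peak with -2.73, called female, in the authors' deposited table.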
